A study of Homo sapiens with 60 samples.

Results

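The low-dose arm of the study comprised 16 RNA-seq libraries of SW1783, an established human astrocytoma line, each from cells given 1 of 6 extracts at 20 µg/mL for 24 h. Every library labelled with that dose was taken, and the 6 extracts were pooled with equal weight and compared with the 3 libraries of cells given the solvent DMSO, called vehicle. These 19 libraries were drawn from 60, the others being 16 at 100 µg/mL (medium dose), 16 at 500 µg/mL (high dose) and 9 of cells given a drug. Poria Cocos (poria), Atractylodis Rhizoma (atractylodes), Glycyrrhizae Radix (licorice) and Panax Ginseng (ginseng) had 3 low-dose libraries each. Angelicae Gigantis Radix (angelica) and Paeoniae Radix (peony) had 2 each, and their replicate 3 was not analysed here. Doses are those of the sample labels, which are the same 3 for all extracts, whereas the series text has some extracts at lower doses, so the true doses of the medium and high groups are uncertain. All were prepared by extraction in hot water. The labels and the series text give different DMSO contents for the vehicle, and no DMSO content was recorded for the extract libraries. All sample titles, of vehicle and extracts alike, carry the label BatchA, but the sample codes put the vehicle in a set apart from every extract. Extract, solvent and sample set therefore cannot be told apart in any comparison with vehicle. Nothing says that replicates were separate cultures, so the p-values measure only the spread between libraries, which may be technical. In the main test that spread was taken within treatment groups over all 60 libraries. The pooled p of that test therefore leaves out the spread between extracts.

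Genes that answer together to unlike treatments often belong to a few broad programmes. Serum response factor (SRF) with its actin-sensing partners, and YAP with TEAD factors, switch on cytoskeletal and matrix genes when cells are spread and under tension. Growth factor signalling through ERK induces early-response transcription factors together with its own inhibitors, such as the Sprouty proteins and dual-specificity phosphatases. Mitotic genes are switched on late in the cell cycle, largely through a promoter element called CHR, and NEAT1 is a long noncoding RNA that builds nuclear paraspeckles.

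Total counts ran from 21.58 to 29.87 M per library, and 17919 genes were tested. Of 12 astroglial markers 7 were measured. VIM, CD44, SOX9, GJA1 and SLC1A3 were present, whereas GFAP, S100B, AQP4, ALDH1L1 and FABP7 were at or near 0 (at most 7 counts in any of the 19 libraries), so the line held few of the defining markers of mature astrocytes. The summed level of the astroglial markers was 8900 to 9290 CPM in vehicle and 7830 to 9200 CPM at the low dose. Markers of other neural cells summed to 151 to 153 and 128 to 163 CPM, and those of endothelium, blood and epithelium to 447 to 457 and 398 to 460 CPM. None of the 15 measured members of these last lists passed the test.

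Ginseng replicate 1 and angelica replicate 2 stood apart from the other low-dose libraries. On the first principal component, which held 10.5% of the variance, the vehicle libraries lay between 9.1 and 19.1 and 14 low-dose libraries between -17.9 and 1.5, whereas these 2 lay at 23.2 and 24.6. They also had the highest shares of mitochondrial counts, 5.1% and 5.16%, against 4.32% to 4.7% in vehicle. Their part in the results was not tested, and several counts are also given without both libraries. Both lay on the vehicle side of that component, so leaving them out favours separation from vehicle. The counts without them are therefore a description and no independent check.

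**Figure D1:**
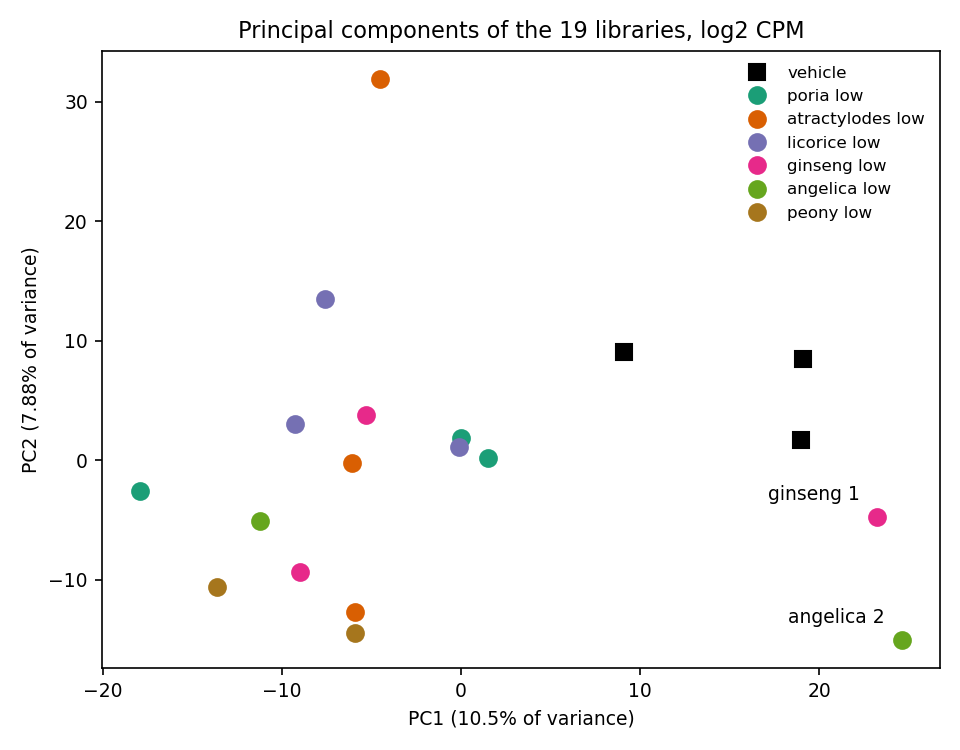
Scores of the 19 libraries on the first (x axis, 10.5% of variance) and second (y axis, 7.88% of variance) principal components of log2 CPM, 1 point per library, coloured by treatment. Ginseng replicate 1 and angelica replicate 2 sit to the right of the 3 vehicle libraries, and the other 14 low-dose libraries lie at or below 1.5 on the first component.

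The first question was which genes differed from vehicle on the mean over the 6 extracts. A difference of that mean does not show that each extract differed. These pooled differences were many and small: the nuclear RNA NEAT1 was higher, and genes of the actin cytoskeleton, growth factor response and mitosis were lower. A gene is called here if its p from the quasi-likelihood test of edgeR, adjusted by the Benjamini-Hochberg method over all genes tested, was under 0.05. By that rule 958 genes were called, 5.35% of those tested, of which 422 were higher (2.36%) and 536 lower (2.99%). The median log2 fold change was 0.25 among the genes called higher and -0.16 among those called lower, and 28 genes (0.156%) rose and 9 (0.0502%) fell by at least 1.5-fold. In 118 genes (0.659%) all 16 low-dose libraries lay above all 3 vehicle libraries, and in 257 (1.43%) all lay below. Leaving out both libraries that stood apart, the other 14 lay above vehicle in 382 genes (2.13%) and below in 668 (3.73%). Both conditions, over 16 libraries, the call and the separation, were met by 86 higher (0.48%) and 197 lower genes (1.1%).

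The count depended strongly on the vehicle libraries. Without vehicle replicate 1 it was 169, without replicate 2 it was 465 and without replicate 3 it was 379, with fewer samples in each fit. Without ginseng replicate 1 and angelica replicate 2 it was 1780, of which 949 were among the 958, and without peony it was 615. With all 16 libraries treated as 1 group, so that the spread between extracts entered the error, 245 genes were called. DESeq2's Wald test called 411 higher and 849 lower. None of the 958 genes changed direction under any of these settings.

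The composition of the libraries was compared by two-sided exact permutation tests over the 969 ways of assigning 3 of 19 libraries to vehicle, which allow a p of 0.00103 at the least. These tests treat the 19 libraries as exchangeable, although they come from different extracts and the vehicle from a sample set of its own. Their p therefore cannot tell treatment from sample set. The TMM scaling factor was 0.9729 ± 0.0043 in vehicle (SD, n = 3) and 0.9972 ± 0.00904 at the low dose (SD, n = 16), with no overlap between the groups (exact permutation p = 0.00103, adjusted over 7 measures 0.00722). The 50 most abundant genes held 17.29% ± 0.212 of counts in vehicle and 16.6% ± 0.549 at the low dose, which did not pass adjustment (exact permutation p = 0.0382, adjusted 0.134). The mitochondrial share, 4.534% against 4.197%, did not pass either (exact permutation p = 0.253). In bulk RNA, fewer cells of a kind and less RNA per cell cannot be told apart.

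Among the genes that rose, the nuclear RNA NEAT1 (ENSG00000245532, chromosome 11, 65422774 to 65445540 on GRCh38) had the largest rise of those named by the rule. Its level was 286, 302 and 310 CPM in the vehicle libraries and ran from 338 to 616 CPM, with a median of 459 CPM, at the low dose. The lowest low-dose value was that of poria replicate 1 and the highest that of peony replicate 2, and the groups did not overlap, as the rule for naming required. The pooled difference was 0.66 ± 0.11 on the log2 scale (SE, edgeR's quasi-likelihood test, adjusted p = 0.000219). By extract it was 0.40 for poria, 0.60 for atractylodes, 0.67 for licorice, 0.55 for ginseng, 0.72 for angelica and 1.01 for peony, values that share the vehicle libraries, and a difference among extracts did not pass the test (adjusted p = 0.176, edgeR). That difference was called with the replicate block (adjusted p = 0.0144) and with no filter on low counts (adjusted p = 9.87e-29). In the 4 extracts with 3 libraries NEAT1 was lowest in replicate 1, at 338, 366, 415 and 344 CPM. With the low dose as 1 group the call was lost (adjusted p = 0.0552).

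MALAT1, a nuclear RNA encoded beside NEAT1, stood at 904, 896 and 932 CPM in vehicle and between 804 and 1170 CPM at the low dose, a difference of 0.10 ± 0.09 that did not pass the test (adjusted p = 0.624, edgeR). The groups overlapped in both directions. Of 20 splicing factors and nuclear RNAs, 2 were called higher and 1 lower, with a median log2 fold change of 0.02 against 0.01 over all genes tested, and 3 and 1 without both libraries that stood apart. Besides NEAT1, the splicing factor LUC7L3 was called higher (0.15 ± 0.04) and SRSF6, a serine- and arginine-rich splicing factor, was called lower (-0.16 ± 0.03). The call of LUC7L3 was lost without vehicle replicate 1 (adjusted p = 0.132, edgeR). The splicing kinase CLK1 was at 0.02 ± 0.04 and did not pass (adjusted p = 0.867). MALAT1, LUC7L3, SRSF6, CLK1, GALT and the list members named beyond the rule given with the processing were chosen after their values were seen.

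The other large rises were in genes of unrelated functions. MAN2C1, a cytosolic mannosidase that trims free glycans, was at 20.6, 23 and 23.4 CPM in vehicle and at 24 to 38 CPM, median 31.3 CPM, at the low dose (0.50 ± 0.09, adjusted p = 0.000596, edgeR). GALT, the uridylyltransferase of galactose metabolism, was at 9.48, 9.35 and 11 CPM in vehicle and 11.6 to 15.7 CPM, median 13.3 CPM, at the low dose (0.44 ± 0.07). PIF1, a DNA helicase, was at 6.85, 7.47 and 6.79 CPM in vehicle and 7.64 to 11.5 CPM, median 9.63 CPM, at the low dose (0.46 ± 0.08). In these 3 genes every low-dose library lay above every vehicle library. KLHL17, an adaptor of the kelch family, rose by 0.49 ± 0.08, from 8.06, 8.43 and 7.81 CPM to between 8.92 and 14.5 CPM.

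The death-domain receptor TNFRSF25 rose by 0.60 ± 0.13, from 2.98, 3.86 and 3.45 CPM to 4.15 to 6.47 CPM. APBB3, an adaptor that binds the amyloid precursor protein, rose by 0.48 ± 0.11, from 4.95, 4.82 and 5.14 CPM to 5.19 to 8.21 CPM. Both calls were lost without vehicle replicate 1 (adjusted p = 0.0839 and 0.0619, edgeR). AHSA2P and NSUN5P1 rose by 0.47 ± 0.08 and 0.50 ± 0.08, and NSUN5P1 ran from 26.7 to 45.1 CPM against 25.5, 24.8 and 25.6 CPM in vehicle. Both carry pseudogene names and have similar copies, so that reads could be shared and their levels are uncertain. With the low dose as 1 group MAN2C1 and NSUN5P1 were not called (adjusted p = 0.0582 and 0.0862, edgeR).

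**Figure D2:**
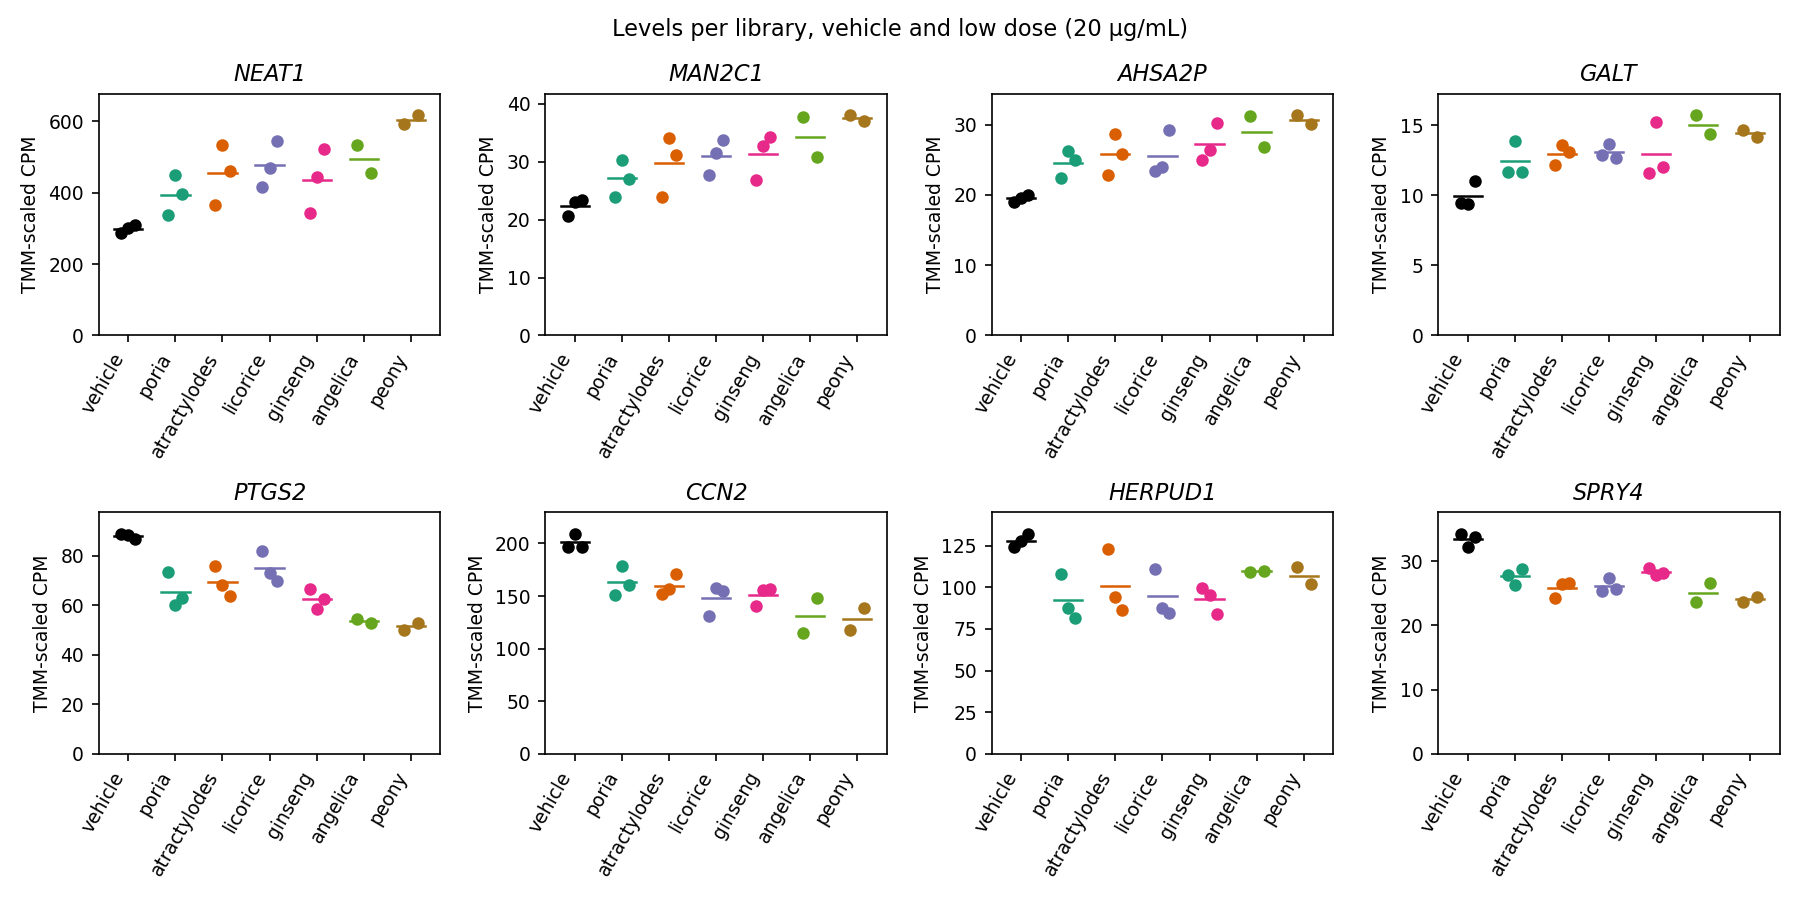
TMM-scaled CPM (y axis, from 0) of 8 genes in each of the 19 libraries, by treatment on the x axis; each point is 1 library and each bar the group mean. In the upper row all low-dose points lie above the vehicle points (NEAT1 338 to 616 against 286 to 310 CPM) and in the lower row below them (PTGS2 50.1 to 81.8 against 86.6 to 88.8 CPM).

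The genes that rose shared annotated features that the test did not use. In GENCODE 29, 68% of the 422 called higher had a transcript annotated as retaining an intron, against 44.8% of all genes tested and 52.5% of the 536 called lower. The median of the mean intron length was 1635 bases for genes called higher, 2995 for all genes and 3602 for genes called lower. Levels differ between these sets, so the shares were also taken among protein-coding genes of at least 10 CPM. Their levels still differed, with medians of 24.6 CPM for genes called higher, 45.5 CPM for all tested and 87.4 CPM for genes called lower. There, a retained-intron transcript was annotated for 76.7% of 275 genes called higher, 61.1% of 9590 genes tested and 54.2% of 500 called lower. A transcript annotated for nonsense-mediated decay, the pathway that degrades messages with an early stop codon, was present for 58.5%, 45.3% and 33.6%. The median transcript GC content was 53.3%, 47.6% and 50% in the same order. These are shares of annotated genes, and gene-level counts do not show which transcript was measured.

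**Figure D3:**
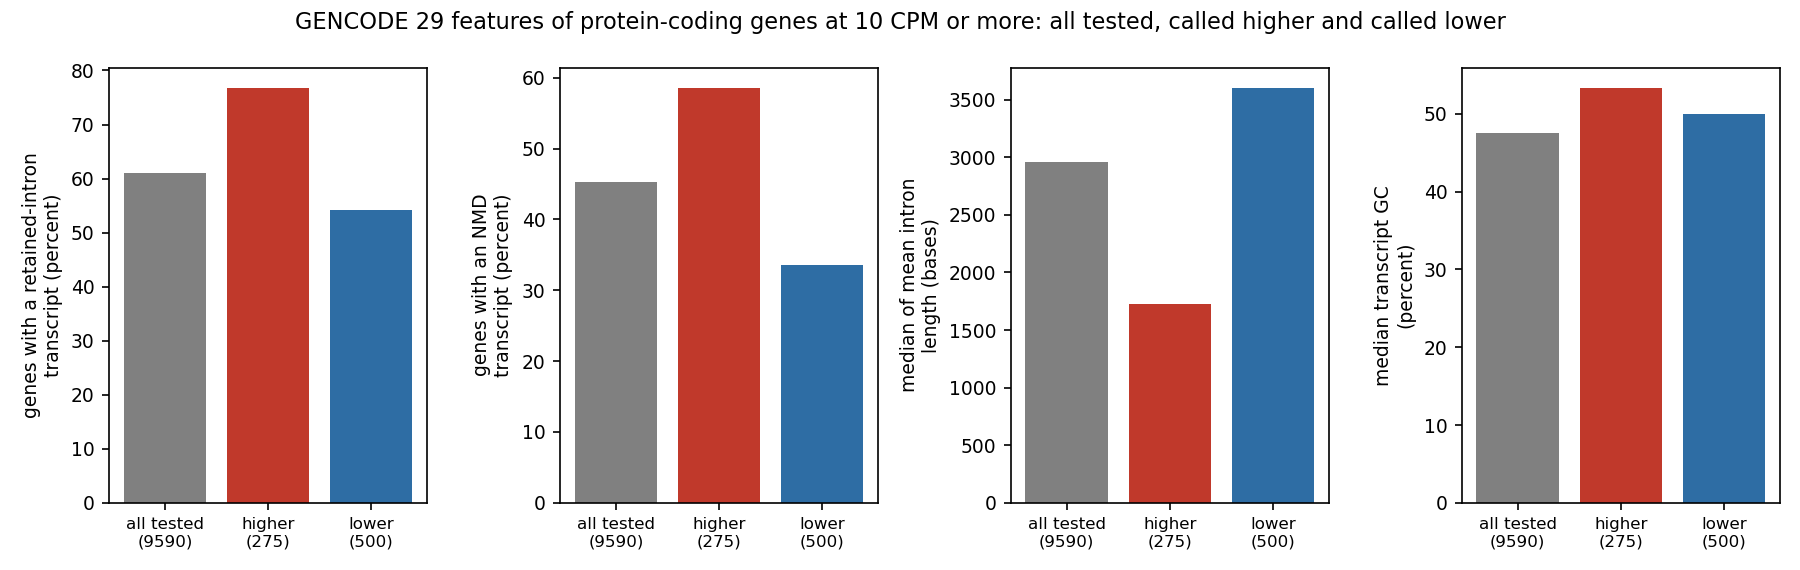
GENCODE 29 features of protein-coding genes at 10 CPM or more, 1 panel per feature, with bars (from 0) for all 9590 tested, the 275 called higher and the 500 called lower. Genes called higher have the highest shares with a retained-intron (76.7%) and a nonsense-mediated decay transcript (58.5%), the shortest introns (1728 bases) and the highest GC content (53.3%).

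Genes of the actin cytoskeleton and of SRF and YAP were lower. Of 19 measured members 10 were called lower and 1 higher, with a median log2 fold change of -0.14 against 0.01 over all genes tested, where 2.99% were called lower. Without both libraries that stood apart, 12 were called lower and 1 higher. The count of lower members was 4, 5 and 8 without vehicle replicate 1, 2 and 3. CCN2 (chromosome 6, 131948176 to 131951373), a matricellular protein and a standard YAP target, was at 197, 209 and 197 CPM in vehicle and 115 to 179 CPM, median 154 CPM, at the low dose. Every low-dose library lay below every vehicle library, with the lowest value in angelica replicate 1 (-0.46 ± 0.08, adjusted p = 0.000538, edgeR). By extract the difference ran from -0.30 for poria to -0.64 for peony.

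ACTA2, smooth muscle actin, was at 145, 145 and 139 CPM in vehicle and 103 to 140 CPM at the low dose, where only angelica replicate 2 reached the vehicle range (-0.26 ± 0.04, adjusted p = 0.000153, edgeR). Thrombospondin THBS1 fell by 0.19 ± 0.04, from 2380, 2350 and 2390 CPM to 1920 to 2310 CPM, with no overlap. LATS2, a kinase that restrains YAP and is itself a YAP target, fell by 0.21 ± 0.05. The actin-binding protein TAGLN was at -0.19 ± 0.05 and was called, but lost the call without any 1 of the 3 vehicle libraries (adjusted p = 0.097, 0.0865 and 0.073). ACTG2, another muscle actin, was called at -0.31 ± 0.08 and lost the call without vehicle replicate 1 or 2 (adjusted p = 0.174 and 0.0665, edgeR). Actins have near-identical copies, so their single levels are uncertain. The LIM protein AJUBA was the member called higher, at 0.20 ± 0.05, and lost the call without vehicle replicate 1 (adjusted p = 0.0808). Outside the list, DLC1, known as a tumour suppressor, fell by 0.35 ± 0.05, from 104, 100 and 96.7 CPM to 65.5 to 88.4 CPM with no overlap. The focal adhesion proteins ZYX (-0.23 ± 0.05) and ACTN1 (-0.19 ± 0.04), also outside the list, were called lower.

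The promoters of CCN2 and ACTG2 are shown because the former was the most changed called member of this list and the latter carried a pair of SRF boxes. They are the 250 bases before the RefSeq start on GRCh38.p14, 5′ to 3′ on the gene's strand, minus strand for CCN2 (chr6:131951373-131951622) and plus strand for ACTG2 (chr2:73892758-73893007). Capitals mark GGAATG, the TEAD motif, in CCN2, and in ACTG2 the SRF motif known as the CArG box, searched with only A or T at its 6 middle bases.
CCN2: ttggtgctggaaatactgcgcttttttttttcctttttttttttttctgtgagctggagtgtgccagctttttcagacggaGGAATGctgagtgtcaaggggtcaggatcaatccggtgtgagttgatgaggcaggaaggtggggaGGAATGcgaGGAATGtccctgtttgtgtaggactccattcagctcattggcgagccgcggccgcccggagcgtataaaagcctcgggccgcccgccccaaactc
ACTG2: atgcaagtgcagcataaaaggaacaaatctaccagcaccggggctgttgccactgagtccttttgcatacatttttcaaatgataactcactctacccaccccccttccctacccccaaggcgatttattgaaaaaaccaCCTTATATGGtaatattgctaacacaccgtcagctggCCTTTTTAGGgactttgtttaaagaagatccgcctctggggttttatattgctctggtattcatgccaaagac
The TEAD motif began at positions -169, -104 and -95 from the CCN2 start, and the CArG boxes at -110 and -73 in ACTG2. On either strand, GGAATG was found in 35.7% of the 14 list members with a promoter in the table and in 11.9% of all 27305 promoters of the same length. The CArG box was found in 14.3% of the 14 and 1.14% of all. Over the 12143 genes tested that had a promoter, the shares of GGAATG and the CArG box were 9.58% and 1.03%. Over the 434 genes called lower that had a promoter, they were 9.68% and 2.3%. These are matches of letters only, and both motifs were chosen after the values were seen.

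Genes of the growth factor early response were lower as well. Of 22 measured members 9 were called lower and 1 higher, at a median log2 fold change of -0.17, and the same counts were found without both libraries that stood apart. The lower members numbered 6, 7 and 7 without vehicle replicate 1, 2 and 3. SPRY4, a Sprouty inhibitor of growth factor signalling, was at 34.2, 32.2 and 33.7 CPM in vehicle and 23.6 to 28.9 CPM, median 26.5 CPM, at the low dose. The groups did not overlap, and the 6 extracts ranged from -0.24 for ginseng to -0.47 for peony (pooled -0.35 ± 0.05, adjusted p = 1.52e-05, edgeR). HBEGF, a ligand of the EGF receptor, fell by 0.35 ± 0.05, from 44.8, 44 and 40.7 CPM to 29.1 to 40.2 CPM. DUSP6, a phosphatase that switches off ERK, fell by 0.31 ± 0.04, from 31.6, 30.9 and 28 CPM to 22 to 26.8 CPM. The inhibitors did not all fall. DUSP5 was called lower (-0.27 ± 0.06), but DUSP1, also a dual-specificity phosphatase, was the member called higher (0.25 ± 0.08, adjusted p = 0.0455, edgeR). The call of DUSP1 was lost without any 1 of the vehicle libraries (adjusted p = 0.272, 0.134 and 0.134, edgeR). DUSP4 (-0.07 ± 0.04), SPRY2 (-0.15 ± 0.05), SPRED1 (-0.03 ± 0.04) and ETV5 (-0.03 ± 0.03) did not pass the test.

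Transcription factors of the early response were mixed. FOS (-0.01 ± 0.16), JUN (0.03 ± 0.03), EGR1 (0.03 ± 0.13), EGR2 (-0.59 ± 0.28) and MYC (0.01 ± 0.05) did not pass the test, whereas EGR3, FOSB, FOSL1 and JUNB were called lower. EGR3 was at 8.99, 10.5 and 7.69 CPM in vehicle and 5.16 to 8.01 CPM at the low dose, where angelica replicate 2 reached the vehicle range (-0.50 ± 0.08, adjusted p = 0.000137, edgeR). FOSB was at 3.11, 2.76 and 2.59 CPM in vehicle and 1.14 to 2.18 CPM at the low dose (-0.64 ± 0.13). FOSL1, the partner of JUN in AP-1, was called at -0.34 ± 0.07. The calls of FOSB and FOSL1 were lost without vehicle replicate 1 (adjusted p = 0.0532 and 0.0697, edgeR). Outside the list, MAFF fell by 0.38 ± 0.05, KLF5, a zinc-finger factor, by 0.35 ± 0.05, and RUNX1 by 0.33 ± 0.05, with KLF5 and RUNX1 below vehicle in all 16 libraries. The zinc-finger protein HIVEP1 was called at -0.38 ± 0.09 and lost the call without vehicle replicate 1 or 2 (adjusted p = 0.124 and 0.0526).

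Mitotic genes were lower by small amounts. Of 20 measured members 10 were called lower and 0 higher, with a median of -0.11 and 18 members below 0, and the same counts were found without both libraries that stood apart. Without vehicle replicate 1, 2 and 3 the lower members numbered 3, 7 and 5. KIF23, a kinesin of the central spindle, was at 137, 136 and 128 CPM in vehicle and 112 to 125 CPM at the low dose (-0.19 ± 0.03, adjusted p = 0.000159, edgeR). TPX2, which activates Aurora kinase A on the spindle, was at 317, 304 and 307 CPM in vehicle and 256 to 300 CPM at the low dose (-0.18 ± 0.03). Neither gene overlapped between the groups, and a difference among extracts passed the test for neither (adjusted p = 0.733 and 0.75, edgeR). BUB1, a checkpoint kinase, fell by 0.17 ± 0.03, with every low-dose library below vehicle. The mitotic kinase PLK1 was called at -0.21 ± 0.04 and lost the call without vehicle replicate 1 (adjusted p = 0.0715). CDC20 was at -0.10 ± 0.04 and was not called (adjusted p = 0.104). Of 20 DNA replication genes 1 was called higher and 0 lower, with a median of 0.03.

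The promoter of KIF23 is shown as a called mitotic gene with the CHR element, here TTTGAA or TTCGAA, in capitals. It is the 250 bases before the RefSeq start on GRCh38.p14, plus strand, chr15:69414099-69414348.
KIF23: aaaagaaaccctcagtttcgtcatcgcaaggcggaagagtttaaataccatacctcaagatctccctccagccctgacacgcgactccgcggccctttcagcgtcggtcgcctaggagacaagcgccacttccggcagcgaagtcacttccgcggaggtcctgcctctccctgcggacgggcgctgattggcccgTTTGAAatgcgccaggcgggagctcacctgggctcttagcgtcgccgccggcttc
The element began at position -55. It was found on either strand in 56.2% of the 16 mitotic list members with a promoter and in 14.6% of all promoters. Among promoters of genes tested the share was 10%, and among those of genes called lower 11.8%. The motif was chosen after the values were seen, and a match is not a bound site.

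Genes of the cholesterol synthesis list were lower in part. Of 24 measured members 6 were called lower and 0 higher, with a median of -0.03, and 3 were called lower without each of the vehicle libraries in turn. Without both libraries that stood apart 6 were called lower and 1 higher. SQLE, an oxidase of sterol synthesis, was at 77.8, 80.7 and 77.7 CPM in vehicle and 66.9 to 76.7 CPM at the low dose, with no overlap (-0.14 ± 0.03, adjusted p = 0.00318, edgeR). INSIG1, which holds the sterol sensor in the endoplasmic reticulum, was called lower at -0.18 ± 0.04. Of 13 genes of fatty acid synthesis 0 were called, with a median of -0.03.

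In the endoplasmic reticulum list 3 of 20 members were called lower and 0 higher, with a median of -0.04 and 16 members below 0. HERPUD1, a ubiquitin-like protein of ER-associated degradation, was at 124, 128 and 132 CPM in vehicle and 81.7 to 123 CPM, median 97.7 CPM, at the low dose. All 16 libraries lay below vehicle, atractylodes replicate 1 by the least (-0.36 ± 0.09, adjusted p = 0.00947, edgeR). The call was lost without vehicle replicate 1 or 3 (adjusted p = 0.0574 and 0.0758, edgeR). DNAJB9, an ER cochaperone, and XBP1, a transcription factor of the unfolded protein response, were called at -0.23 ± 0.07 and -0.15 ± 0.05, and both calls were lost without any 1 of the vehicle libraries (adjusted p from 0.105 to 0.188 for DNAJB9 and from 0.12 to 0.176 for XBP1). Without ginseng replicate 1 and angelica replicate 2, 6 members were called lower.

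The promoter of XBP1 is shown because it holds the ER stress response element (ERSE), in capitals. It is the 250 bases before the RefSeq start on GRCh38.p14, minus strand, chr22:28800570-28800819.
XBP1: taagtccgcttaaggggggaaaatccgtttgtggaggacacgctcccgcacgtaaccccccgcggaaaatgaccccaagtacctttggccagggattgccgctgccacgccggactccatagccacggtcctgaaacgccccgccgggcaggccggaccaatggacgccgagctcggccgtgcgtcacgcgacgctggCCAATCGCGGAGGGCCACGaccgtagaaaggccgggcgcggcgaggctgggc
The element, CCAAT followed by 9 bases of any kind and CCACG, began at position -52. It was found on either strand in 26.3% of the 19 list members with a promoter, in 0.0806% of all promoters and in 0.115% of those of genes tested. Of the 434 promoters of genes called lower 1 held it (0.23%), that of XBP1 itself.

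Single genes of other programmes were called. PTGS2, the inducible cyclooxygenase of prostaglandin synthesis, was at 88.8, 88.2 and 86.6 CPM in vehicle and 50.1 to 81.8 CPM, median 63.3 CPM, at the low dose. Every library lay below vehicle, licorice replicate 1 by the least (-0.49 ± 0.06, adjusted p = 4.8e-07, edgeR). The size differed among extracts, from -0.23 for licorice to -0.77 for peony (adjusted p = 9.83e-05 for the difference), and with the low dose as 1 group the call was lost (adjusted p = 0.0552). KRTAP2-3, a keratin-associated gene with similar copies and thus of uncertain level, fell by 0.65 ± 0.13, from 6.85, 6.55 and 5.89 CPM to 2.82 to 5.72 CPM. RPL23AP42, a processed ribosomal pseudogene whose reads can come from the parent gene, was called at -0.46 ± 0.11 and lost the call without vehicle replicate 1 (adjusted p = 0.133). TIPARP, a mono-ADP-ribosyltransferase and target of the aryl hydrocarbon receptor (AhR), fell by 0.28 ± 0.05, from 58.5, 58.4 and 57.6 CPM to 40.4 to 54.2 CPM. The transcription factor NFE2L2, also on the AhR list, was called at -0.17 ± 0.05 and lost the call without any 1 of the vehicle libraries (adjusted p = 0.0829, 0.118 and 0.0694).

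Among amino acid and stress genes, the transporter SLC7A5 fell by 0.19 ± 0.03, with no overlap between groups. DDIT4, an inhibitor of mTOR complex 1, was at 51.1, 60.5 and 57.5 CPM in vehicle and 62.1 to 86.5 CPM at the low dose, every library above vehicle (0.35 ± 0.07). Its call was lost without vehicle replicate 1 (adjusted p = 0.113, edgeR). The clock gene PER1 and the lipase inhibitor ANGPTL4, on the CREB, clock and glucocorticoid lists, were called at -0.16 ± 0.04 and -0.26 ± 0.06. Both calls were lost without any 1 of the vehicle libraries (adjusted p from 0.0612 to 0.212 for PER1 and from 0.0634 to 0.0877 for ANGPTL4).

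In the remaining lists at most 4 members were called, to be read against the 2.36% higher and 2.99% lower over all genes tested. Of 20 ATF4 targets 1 was called higher and 3 lower, of 14 heat shock genes 1 and 2, of 20 genes of hypoxia and glycolysis 1 and 2, and of 11 glucocorticoid-responsive genes 1 and 2. Called lower, with 0 called higher, were 3 of 15 clock genes, 3 of 11 CREB-responsive genes, 2 of 6 AhR targets, 2 of 21 collagens and matrix genes, 2 of 20 nucleolar genes and 1 of 14 genes of the BMP response. VIM, an intermediate filament gene, was the astroglial marker called lower (-0.19 ± 0.04) and lost the call without vehicle replicate 1 (adjusted p = 0.0857). Called higher, with 0 called lower, were 1 of 22 NRF2 targets and 1 of 8 osmotic-stress genes. The shares of AhR targets and CREB-responsive genes called lower lay far above that of all genes, though on few members, and that of NRF2 targets called higher lay near it. On the AhR list CYP1A1 (0.09 ± 0.18), CYP1B1 (0.05 ± 0.04), AHRR (-0.07 ± 0.07) and ALDH3A1 (-0.04 ± 0.33) did not pass the test. The CREB-responsive genes called were SIK1, PER1 and FOSB, and PER1 and FOSB are also on other lists. No member was called among 5 metallothionein-list genes, 8 MondoA targets, 18 FOXO and quiescence genes, 16 p53 targets, 15 histones, 19 interferon-response genes, 25 cytosolic ribosomal protein genes, 13 genes of the mitochondrial genome, 24 nuclear genes of the respiratory chain and 23 lysosomal genes. Over the 13 lists with no call by edgeR, which include the fatty acid list and both lists of other cell types, 26 of 194 members had an unadjusted p under 0.05, and DESeq2 called 0 higher and 2 lower. The mitochondrial genome had a median of -0.14 and the nuclear respiratory chain of 0.06, so these 2 lists lay on opposite sides of 0 without a called member.

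**Figure D4:**
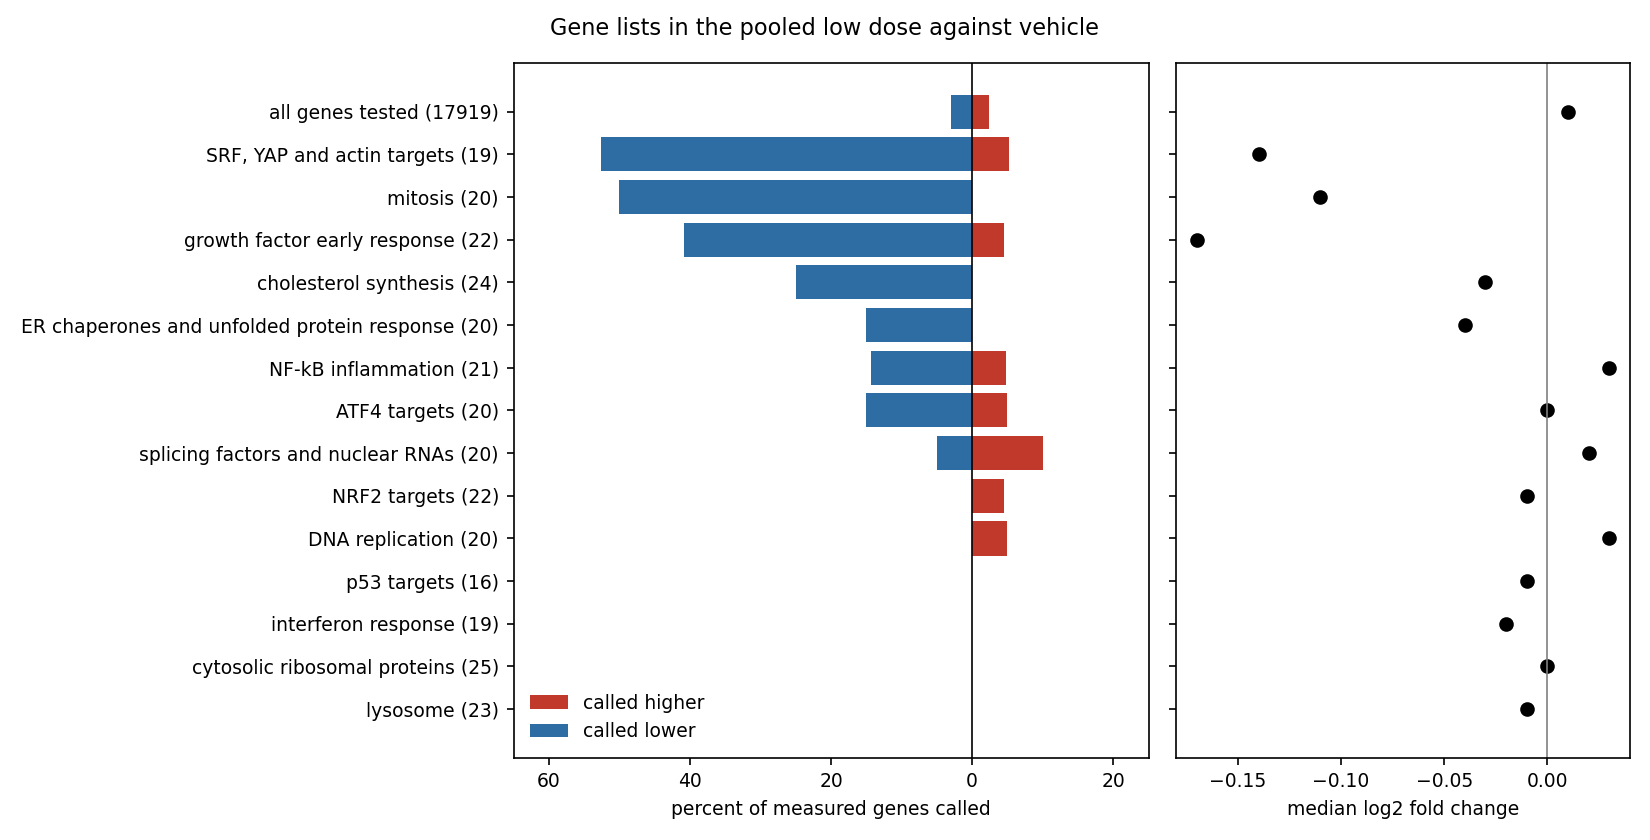
Left, percent of the measured members of each list (number in parentheses) called higher (red, to the right) or lower (blue, to the left) in the pooled comparison, with all genes tested at the top; right, the median log2 fold change. The SRF and YAP, mitosis and growth factor lists have the highest shares called lower (10 of 19, 10 of 20 and 9 of 22) and medians of -0.14, -0.11 and -0.17.

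The next question was how far the extracts differed from each other, a comparison that does not use the vehicle. The sample codes put the extracts in sets by pairs: poria with atractylodes, licorice with ginseng, and angelica with peony. Between extracts of different pairs, extract and sample set cannot be told apart. In a test of any difference among the 6 extracts 290 genes were called, 1.62% of those tested, and 80 of the 958 genes called against vehicle were among them. Without both libraries that stood apart 244 were called. Licorice differed most from the mean of the other 5, with 390 genes called (2.18%), 214 higher (1.19%) and 176 lower (0.982%), and 365 called without both libraries. Poria differed in 5 genes (0.0279%), atractylodes in 17 (0.0949%), ginseng in 8 (0.0446%), angelica in 11 (0.0614%) and peony in 19 (0.106%).

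Against vehicle each extract alone gave fewer calls, on fewer libraries. Peony gave 937 (5.23%; 2.73% of genes higher and 2.5% lower), and licorice 589 (3.29%; 1.53% and 1.76%). Angelica gave 313 (1.75%; 1.05% and 0.692%) and atractylodes 144 (0.804%; 0.324% and 0.48%). Ginseng gave 106 (0.592%; 0.218% and 0.374%) and poria 75 (0.419%; 0.117% and 0.301%). Leaving out 1 library lowered them to 201 for peony (without its replicate 1), 162 for licorice (without its replicate 3), 111 for angelica (without its replicate 1) and 26 for atractylodes (without vehicle replicate 1). For peony and angelica this leaves 1 library, whose spread is taken from the other groups. The count for ginseng was 403 without its replicate 1 and 11 without its replicate 3, and that for poria was 0 by edgeR without its replicate 2, with 1276 genes at an unadjusted p under 0.05. DESeq2 was not run with single libraries left out, and over all 3 poria libraries it called 196. The 422 genes called higher had medians of 0.20 for poria, 0.22 for atractylodes, 0.23 for licorice, 0.23 for ginseng, 0.29 for angelica and 0.36 for peony. The 536 genes called lower had medians from -0.14 for ginseng to -0.21 for peony. The share of the 422 called higher by extract ran from 4.03% for poria to 70.1% for peony. That of the 536 called lower ran from 9.14% for poria to 64.2% for peony, and 3 of the 536 were called higher for licorice. These genes were chosen on the pooled values, so the medians and shares are a description.

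The genes that differed most were targets of NF-kB, the transcription factor of inflammatory signalling. CXCL8, a chemokine that attracts neutrophils, was at 10.6, 12.6 and 9.91 CPM in vehicle and at 30.3, 30.7 and 31.3 CPM with licorice. The atractylodes libraries were at 22.4, 20.6 and 21.8 CPM and the other extracts lay lower, down to 5.48 CPM in peony replicate 2. Against the mean of the other 5 extracts, CXCL8 was higher by 1.79 ± 0.07 with licorice and by 1.18 ± 0.07 with atractylodes (adjusted p = 5.7e-27 and 4.38e-17, edgeR). ICAM1, an adhesion molecule for leukocytes, was at 72.8, 72.4 and 70.9 CPM in vehicle, at 127, 127 and 122 CPM with licorice and at 97.1, 91.6 and 93.4 CPM with atractylodes. Its differences from the other 5 were 0.91 ± 0.03 and 0.41 ± 0.03, and the pooled difference from vehicle was 0.04 ± 0.03, which was not called (adjusted p = 0.525).

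SOD2, the mitochondrial superoxide dismutase, BIRC3, an inhibitor of apoptosis, PTX3, a secreted pattern-recognition protein, and the cytokine IL6 were higher with licorice than with the other 5 by 0.97 ± 0.04, 1.22 ± 0.06, 0.75 ± 0.05 and 1.10 ± 0.08. Of 21 NF-kB targets, 15 were called higher and 0 lower for licorice against vehicle, 6 and 2 for atractylodes, 0 and 2 for poria, 0 and 5 for ginseng, 0 and 5 for angelica and 0 and 6 for peony. Pooled over extracts, 1 was called higher and 3 lower. The pooled rises of SOD2 (0.23 ± 0.04) and PTX3 (0.29 ± 0.05) were not called without licorice (adjusted p = 0.357 and 0.0628, edgeR), and every pooled value here is a mean over extracts that differ. These comparisons with vehicle share its 3 libraries, and licorice shares a sample set with ginseng.

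The last question was whether the pooled differences followed the dose. Over all genes, 145 (0.809%) were called between the medium and the low dose and 2599 (14.5%) between the high and the low dose, or 126 and 2134 without both libraries that stood apart. At 20, 100 and 500 µg/mL the 422 genes called higher had median log2 fold changes of 0.25, 0.23 and 0.24 against vehicle, and the 536 called lower -0.16, -0.14 and -0.16. The 3 doses share the vehicle libraries, so likeness between them is no separate evidence. Medium and high dose could be compared without vehicle and without the libraries that chose the genes. In that comparison 1113 genes (6.21%) were called, with 2.7% of all genes tested called higher and 3.52% lower at the high dose. Of the 422 genes 5.45% were called higher and 1.9% lower, and of the 536 genes 5.04% were called higher and 14.7% lower. The median level of the 536 genes was 81.5 CPM against 14.2 CPM for all genes tested, which gives them more counts in the test.

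Single genes followed different courses on the mean over extracts. The course within each extract was not tested. NEAT1 was at 0.66, 0.51 and 0.44 against vehicle at the low, medium and high dose, and the difference of its high from its medium dose did not pass the test (-0.07 ± 0.06, adjusted p = 0.607, edgeR). MAN2C1, at 0.50, 0.43 and 0.39, did not pass it either (-0.04 ± 0.05, adjusted p = 0.764). ACTA2 was at -0.26, -0.30 and -0.58 and fell from the medium to the high dose by 0.28 ± 0.03 (adjusted p = 1.17e-11, edgeR). HERPUD1 was at -0.36, -0.47 and -0.69 and fell by 0.22 ± 0.05 (adjusted p = 0.00558). Of the SRF and YAP list 9 of 19 members were lower at the high than at the medium dose and 0 higher, of the mitosis list 8 of 20 and 0, and of the ER list 12 of 20 and 0.

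Other genes were called lower at the low dose and rose from the medium to the high dose. PTGS2 was at -0.49, -0.18 and 0.15 against vehicle, and rose from the medium to the high dose by 0.33 ± 0.03 (adjusted p = 3.36e-10, edgeR). LIF, a cytokine of the IL6 family, was at -0.40, -0.01 and 0.41 and rose by 0.41 ± 0.04 (adjusted p = 6.78e-12). TIPARP was at -0.28, -0.13 and 0.16 and rose by 0.29 ± 0.03 (adjusted p = 6.61e-10). KRTAP2-3 was at -0.65, -0.23 and 0.21 and rose by 0.43 ± 0.08 (adjusted p = 7.79e-05), and DUSP6 at -0.31, -0.18 and 0.05 and rose by 0.23 ± 0.03 (adjusted p = 3.34e-09). At the high dose against vehicle LIF and TIPARP were called higher (adjusted p = 1.05e-05 and 0.0297, edgeR), and PTGS2, KRTAP2-3 and DUSP6 were not called (adjusted p = 0.0785, 0.291 and 0.55). Of the NF-kB list 16 of 21 members were higher at the high than at the medium dose and 0 lower. In the pooled fall of LIF the groups overlapped, and with the low dose as 1 group it was not called (adjusted p = 0.16).

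**Figure D5:**
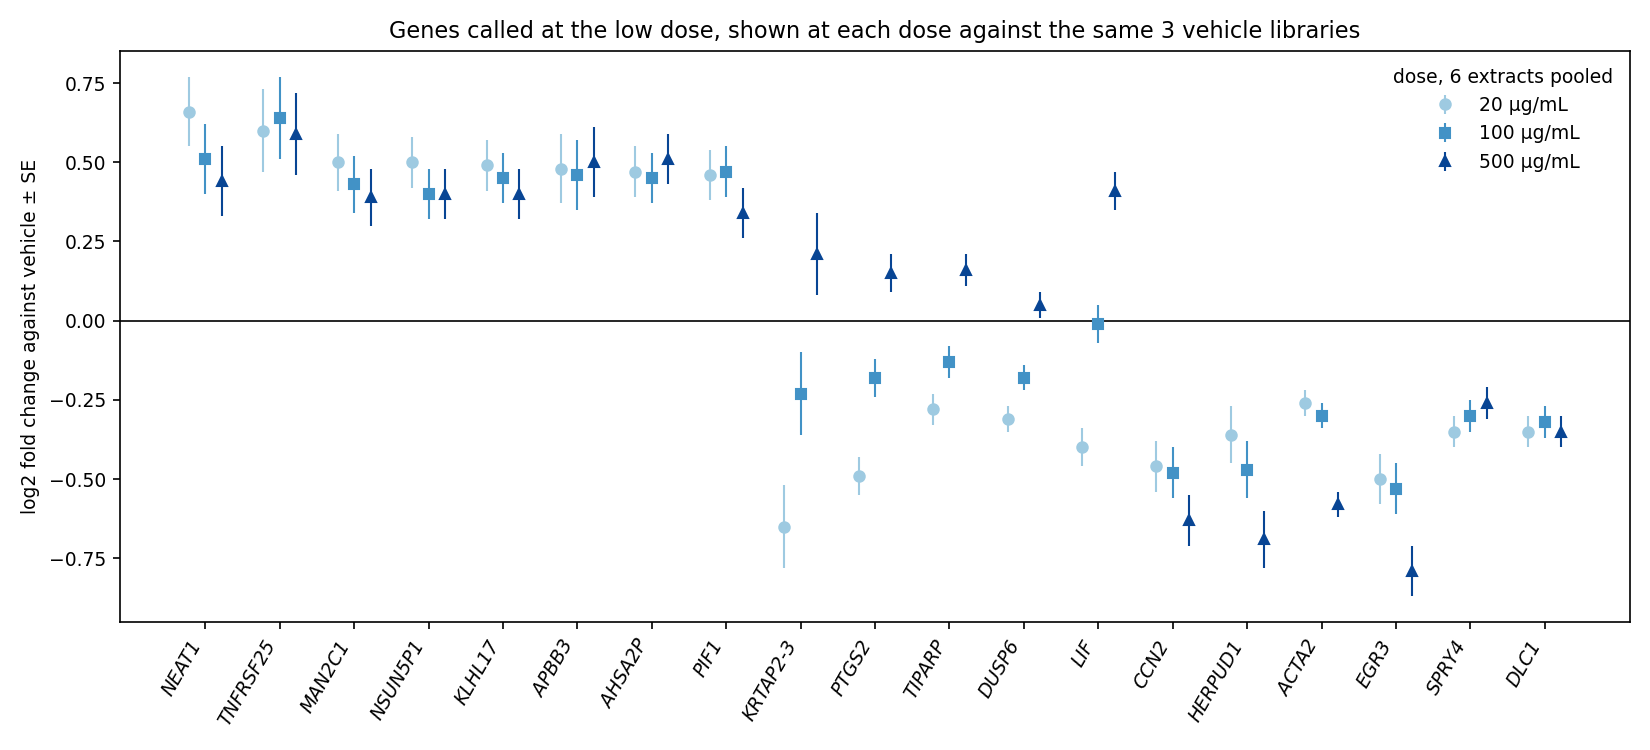
Log2 fold change against vehicle ± SE (y axis) of 19 genes called at the low dose, by gene on the x axis, for the 6 extracts pooled at 20 (circles), 100 (squares) and 500 µg/mL (triangles), all against the same 3 vehicle libraries. NEAT1 and the other rises stay above 0 at every dose, PTGS2, TIPARP, DUSP6, LIF and KRTAP2-3 have values below 0 at the low and above 0 at the high dose, of which those of LIF and TIPARP passed the test at the high dose, and ACTA2 reaches -0.58 at the high dose.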

How the data were processed

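The deposited values are expected counts for each gene, which the authors estimated with RSEM 1.3.3, per the submitters' processing notes. Other tools in these notes were STAR 2.7.3a, Trim Galore 0.6.5 and FastQC 0.11.9, with GRCh38 as the build. Whether counting used strand was not given in the sources used here. Among 279 columns 60 belong to the given samples and 219 were not used here. Per the labels, RNA was read as 100 bp paired ends after a strand-marking library preparation.

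Expected counts were rounded (9.48% of values were not whole at a tolerance of 1e-06), filtered in edgeR 4.0.16 with filterByExpr at a minimum count of 10 and a minimum total of 15, leaving 17919 of 60675 genes, and scaled by TMM. A quasi-likelihood model was fitted to all 60 libraries with 1 coefficient for each of 22 groups and robust estimation in R 4.3.3. Its common biological coefficient of variation came to 0.0507, with 13.4 prior degrees of freedom at the median. Each contrast weights the extracts equally and was tested two-sided with edgeR's quasi-likelihood F-test and Benjamini-Hochberg adjustment at 0.05. An SE is the size of the log2 fold change divided by the square root of F. CPM values are TMM-scaled, and a prior count of 2 was used only for the principal components.

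The libraries and 34 gene lists were chosen with earlier results of these data known, so no list is independent evidence; of 585 list members 581 were found. Named genes were called genes of at least 5 CPM with an informative symbol and no overlap between groups, the 8 largest in each direction, then 2 members of each list with at least 1 in 4 called, and the 6 with the smallest p among extracts; 1 gene that this rule names is not reported here. Promoters come from RefSeq, GRCh38.p14, matched by symbol. Gene positions and features come from GENCODE 29.

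Alternatives were RLE size factors, no filter, the replicate number as a block, the 19 libraries alone, the low dose as 1 group, equal weight per library, leaving out each extract, each library or both that stood apart, and DESeq2 1.42.0. Comparisons of the high with the medium dose, and settings for each extract against the other 5, were added after the data were seen. In simulated data for the pooled comparison with 17459 genes tested, 23, 30, 42 and 49 of 50 genes were recovered at 1.25-, 1.5-, 2- and 4-fold, with 0 in the wrong direction and 10 unchanged genes called.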

Additional observations from a re-analysis of the deposited data

Results flagged for a closer look

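These genes differed among the 6 low-dose extracts in edgeR's 6-way quasi-likelihood test with Benjamini-Hochberg adjustment, which does not use the vehicle. The NF-kB targets had the smallest adjusted p: 6.82e-29 for ICAM1, 1.84e-27 for CXCL8, 5.18e-25 for SOD2, 6.73e-20 for BIRC3, 2.88e-15 for PTX3 and 7.94e-15 for IL6. Of these, SOD2 and PTX3 are not on the list of NF-kB genes used here. Further members of that list were NFKBIA (1.04e-11), which encodes an inhibitor of NF-kB, CCL2 (4.45e-11), LIF (4.72e-05) and PTGS2 (9.83e-05). NFKBIA was highest in licorice replicate 2 and lowest in ginseng replicate 3, at 74.8 and 44.8 CPM, against 45.5, 47.2 and 47 CPM in vehicle. The pooled fall of CCL2 (-0.23 ± 0.06) was not called without angelica (adjusted p = 0.113) or without peony (adjusted p = 0.148).

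The transcription factor MAFF (adjusted p = 0.00182), PHLDA1 (0.0182), a growth factor response gene, and INSIG1 (0.0366) were called lower in the pooled comparison and differed in size among extracts. Without both libraries that stood apart the difference in PHLDA1 was not called (adjusted p = 0.0734). NSUN5P1 (adjusted p = 0.0148) and KLHL17 (0.041) were called higher and were highest in peony replicate 1, at 45.1 and 14.5 CPM.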

How the results depend on the processing

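The pooled count of 958 (422 higher, 536 lower) was 615 (248 higher) without peony, 622 (226 higher) over the 4 extracts with 3 libraries, 1780 (732 and 1048) without both libraries that stood apart and 245 (79 and 166) with the low dose as 1 group. In the 19 libraries alone 665 were called, of which 269 were higher, and 63.8% of the 958 stayed called. By DESeq2 849 were lower. Leaving out 1 library gave 169 to 1408 called, with 65 to 560 higher and 104 to 848 lower. The lowest of each came without vehicle replicate 1. Against vehicle, leaving out 1 library gave 0 to 52 calls for poria, 26 to 200 for atractylodes, 162 to 417 for licorice, 11 to 403 for ginseng, 111 to 312 for angelica and 201 to 655 for peony. With no filter on low counts poria had 512, atractylodes 652 and ginseng 328; without both libraries 169, 337 and 570; by DESeq2 196, 379 and 230. With no filter 1027 genes differed among extracts and 256 between medium and low dose. The sum over the 5 extracts other than licorice, each against the rest, was 60, and 1006 with no filter and 92 by DESeq2. The cause of these shifts was not tested. Of 2345 alternative values of 69 named genes, 2206 kept their direction and side of the threshold. Many of these genes were named because they were called, and most settings leave out 1 library or extract, so a high share is no evidence. Of the 958 genes, 17.4%, 46% and 37.9% stayed called without vehicle replicate 1, 2 and 3, and 24.9% with the low dose as 1 group. CXCL8, at -0.02 pooled, was 0.38 over the 4 extracts with 3 libraries.

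The replicate numbers did not pair the libraries on average across genes. Over 52 same-numbered pairs the deviations from group means had a mean correlation of -0.00441 (-0.153 to 0.11). That mean cannot exclude replicate effects in single genes. NEAT1 was lowest in replicate 1 of vehicle and of every low-dose extract except angelica. HERPUD1 was highest in replicate 1 of every extract except angelica, but not of vehicle. With the block, genes called as different among extracts rose from 290 to 363. With the replicate block 1174 genes were called, 957 of them among the 958. The block gave 128 calls for poria, 251 for atractylodes, 188 for ginseng, 491 for angelica and a sum of 109 for the 5 extracts against the rest.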
